A study of Triticum aestivum with 27 samples.

Results

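TraesCS3D01G364900 is the wheat gene on chromosome 3D described here under the working name TaABI5, a bZIP transcription factor of the abscisic acid response in grain. It was picked by its identifier, as 1 of the 153699 genes in the deposited table. The table pairs it with the symbol LOC109768319 and no description, so the name ABI5 could not be checked against these data. The gene was followed in spikes of 3 hexaploid wheat varieties (Triticum aestivum), the white-grained Baipimai and the red-grained Shengsimai, which the study chose as resistant to pre-harvest sprouting, and the white-grained Zhoumai18, chosen as highly susceptible. Spikes were cut at the wax ripe stage and soaked, and were frozen then (0 h) or after 48 h or 96 h in a humid chamber at 22 degrees C and 95% relative humidity. The deposited labels name the variety of each library, but the code number they carry for Baipimai stands beside another white-grained variety in the study's own list of varieties, while those of Shengsimai and Zhoumai18 match it. The study graded that other variety as middle resistant and lists it with the marker haplotype that it found less resistant. The labels were followed, and values given for Baipimai are those of the libraries labelled so. The 3 varieties at 3 times gave 9 groups of 3 libraries, 27 in all, and per the study's methods each replicate was a separate spike. No spike was kept dry, so soaking is common to all groups, and the varieties differ in their whole genetic background, so a difference between them belongs to the variety and not to a known allele.

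Abscisic acid is the plant hormone that sets and keeps seed dormancy. ABI5 acts at the end of its pathway: it is switched on by SnRK2 kinases, which phosphatases of the ABI1 type hold in check, it binds abscisic acid response elements in promoters of late embryogenesis genes, and it works with the B3 factor VIVIPAROUS-1, the cereal counterpart of ABI3. In germinating grain the opposing hormone, gibberellin, leads to production of alpha-amylase, which breaks down starch. A sprouting spike is a mixture of grain, chaff, stem and seedling tissue, so fewer cells of a type and less RNA per cell cannot be told apart in these samples.

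The libraries held 45590141 to 55765523 counts each. The trimmed mean of M-values (TMM) scaling factors that make libraries comparable ran from 0.71 to 1.16 and were lowest in Shengsimai at 0 h, where the 50 most abundant genes took 25.2% to 27.4% of the counts. A gene was tested where it had at least 1 FPKM (read fragments scaled for gene length and library size) in at least 3 libraries, which 68658 genes did, TraesCS3D01G364900 among them. Of the list of tissue markers, the 2 light-harvesting genes (LHC Ib-21, chlorophyll-binding proteins of green tissue) summed to 42.9 to 44.2 FPKM in Zhoumai18 at 96 h and to at most 0.651 FPKM in every other group. The 4 grain markers were the avenin-like genes avnla and avnlb, the glutenin gene GluD3-3 and the puroindoline gene pinBv2. At 0 h they summed to 30.9 to 56.3 FPKM in Zhoumai18 and 23.4 to 27.9 FPKM in Baipimai. In Shengsimai at 0 h they summed to at most 0.72 FPKM. At 48 h the sums were 23.8 to 33.6 FPKM in Zhoumai18, 16.4 to 21.3 in Baipimai and 3.86 to 4.48 in Shengsimai. At 96 h they were at most 2.08 FPKM in every variety. Of these markers, pinBv2 was listed at 0 in every Shengsimai library and in Zhoumai18 at 48 and 96 h. In Zhoumai18 at 0 h it had 2 counts in total. The grain sums differed between varieties at 0 h and rose in Shengsimai by 48 h, so they cannot be read as an amount of grain.

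TraesCS3D01G364900 was among the more abundant transcripts of the soaked spike and fell steeply in all 3 varieties within 48 h, and in Zhoumai18 it went on falling to 96 h. In Zhoumai18 its level was 151, 143 and 149 FPKM in the 3 libraries at 0 h, 23.1, 23.3 and 21.2 FPKM at 48 h, and 5.82, 7.47 and 8.03 FPKM at 96 h. The 3 times did not overlap in this variety, and each later time lay below the one before. In Baipimai the libraries had 122, 133 and 122 FPKM at 0 h, 29.8, 30.5 and 29.5 FPKM at 48 h, and 30.4, 29.8 and 26.1 FPKM at 96 h. All Baipimai libraries at 48 and 96 h lay far below those at 0 h, and the later times overlapped each other. In Shengsimai the values were 112, 126 and 128 FPKM at 0 h, 36, 36.8 and 33.4 FPKM at 48 h, and 44.8, 42.2 and 39.2 FPKM at 96 h. Here too all later libraries lay below the 0 h libraries, and all 3 at 96 h lay above all 3 at 48 h. Libraries taken at 0 h held 7277 to 9733 counts of this gene and those at 48 h held 1293 to 2604. At 96 h the lowest group, Zhoumai18, still rested on 419, 498 and 504 counts.

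**Figure D1:**
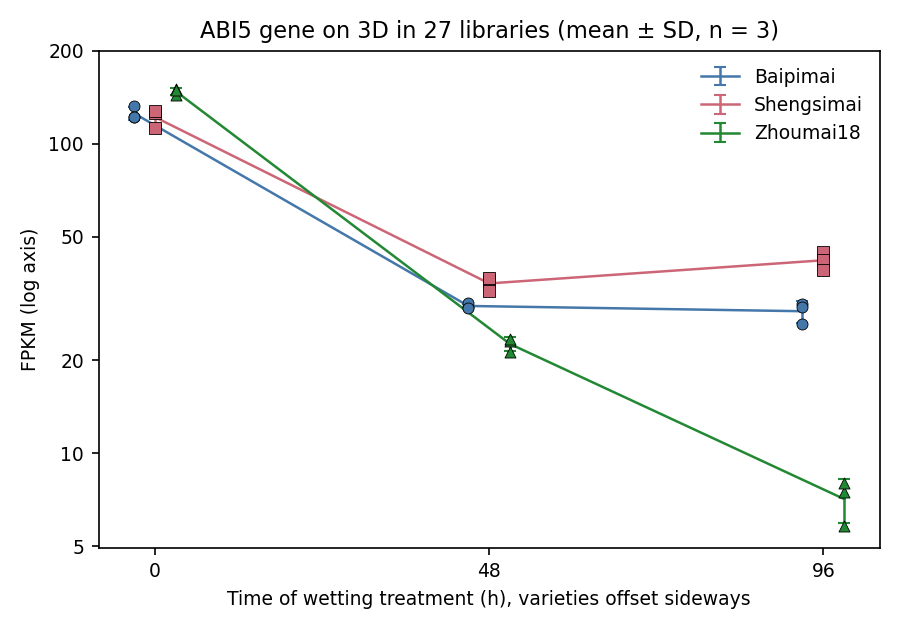
FPKM of TraesCS3D01G364900 (log axis) against hours of treatment, with a point per library, a line through the means and bars of 1 SD (n = 3). All libraries start between 112 and 151 FPKM, Baipimai and Shengsimai stay between 26.1 and 44.8 FPKM at 48 and 96 h, and Zhoumai18 ends at 5.82 to 8.03 FPKM.

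The change over time was tested on the counts of TraesCS3D01G364900 with edgeR's quasi-likelihood test, in a fit of all 27 libraries, with p-values adjusted over the 68658 genes. From 0 to 48 h the gene fell in Zhoumai18 by 2.98 on the log2 scale (SE 0.0841, 7.87-fold, adjusted p = 1.24e-21), when 72.9% of all tested genes passed the threshold of 0.05. It fell by 2.50 in Baipimai (SE 0.0822, 5.64-fold, adjusted p = 3.55e-20, 72.2% of genes called) and by 2.3 in Shengsimai (SE 0.0814, 4.94-fold, adjusted p = 1.57e-19, 72.1% called). With so many genes called, the size of the change says more than the call: 3.96% of tested genes in Zhoumai18, 3.37% in Baipimai and 5.42% in Shengsimai had a lower log2 change than this gene.

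Between 48 and 96 h the varieties took different courses. TraesCS3D01G364900 fell again in Zhoumai18, by 1.66 (SE 0.0858, 3.16-fold, adjusted p = 6.6e-16 in edgeR's quasi-likelihood test, 74.8% of genes called). In Baipimai the change was 0.12 (95% interval -0.04 to 0.29, adjusted p = 0.194, 55.8% called) and did not pass the threshold. In Shengsimai it rose by 0.23 (SE 0.0789, adjusted p = 0.0339, 21.6% called). This small rise was not secure: the call was lost without Shengsimai 48 h replicate 1 (0.25), 48 h replicate 3 (0.20), 96 h replicate 1 (0.18) or 96 h replicate 2 (0.23), with relative log expression (RLE) scaling (0.21, adjusted p = 0.0661) and with no filter on low genes (0.21, adjusted p = 0.0866).

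Over the whole course, from 0 to 96 h, TraesCS3D01G364900 fell by 4.64 in Zhoumai18 (SE 0.0923, 24.9-fold, adjusted p = 1.5e-25 in edgeR's quasi-likelihood test, 82.2% of genes called), by 2.37 in Baipimai (SE 0.082, 5.18-fold, adjusted p = 1.05e-19, 70.8% called) and by 2.07 in Shengsimai (SE 0.0807, 4.2-fold, adjusted p = 1.36e-18, 72.7% called). The log2 change was lower than this gene's in 3.26% of tested genes in Zhoumai18, 4.47% in Baipimai and 6.08% in Shengsimai. The median log2 change of all tested genes was 0.12, 0.11 and 0.08 in these comparisons. The fall in Zhoumai18 at 96 h came in the same 3 libraries in which the light-harvesting genes were high, and the summed grain markers were low in every variety at 96 h. At 48 h, when the gene had already fallen, the grain markers still summed to 23.8 to 33.6 FPKM in Zhoumai18 and 16.4 to 21.3 in Baipimai. In Shengsimai they summed to at most 0.72 FPKM at 0 h and to 3.86 to 4.48 at 48 h. The part of either set of markers in the result was not tested.

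At 0 h the varieties could not be ordered by this gene. By FPKM the 3 Zhoumai18 libraries (143 to 151) lay above all Baipimai (122 to 133) and Shengsimai (112 to 128) libraries. On counts scaled by TMM, TraesCS3D01G364900 had 205 ± 7.49 CPM (counts relative to the scaled library size; mean ± SD, n = 3) in Zhoumai18, 190 ± 7.37 in Baipimai and 219 ± 12 in Shengsimai. With edgeR's quasi-likelihood test, Baipimai differed from Zhoumai18 by -0.11 on the log2 scale (95% interval -0.27 to 0.05, adjusted p = 0.256, 49.2% of genes called) and Shengsimai from Zhoumai18 by 0.10 (95% interval -0.06 to 0.25, adjusted p = 0.297, 58.7% called). Baipimai was lower than Shengsimai by 0.20 (SE 0.0771, adjusted p = 0.0302, 47.7% called), but not without Baipimai replicate 1 (-0.20, adjusted p = 0.0667), Baipimai replicate 3 (-0.18), Shengsimai replicate 2 (-0.19) or Shengsimai replicate 3 (-0.18). Scaling by total counts alone turned the last comparisons around. Shengsimai was then lower than Zhoumai18 by 0.29 (adjusted p = 0.00168) with the median of all genes at -0.38, and Baipimai stood at 0.05 against Shengsimai (adjusted p = 0.641) with the median of all genes at 0.26.

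At 48 h the order was clear and the differences modest. TraesCS3D01G364900 reached 44.4 ± 2.13 CPM in Shengsimai, 33.7 ± 0.845 in Baipimai and 26.1 ± 1.88 in Zhoumai18 (mean ± SD, n = 3), and no 2 varieties overlapped. It was higher in Shengsimai than in Zhoumai18 by 0.77 (SE 0.0802, 1.70-fold, adjusted p = 2.38e-09 in edgeR's quasi-likelihood test, 62.4% of genes called) and in Baipimai than in Zhoumai18 by 0.37 (SE 0.0802, 1.29-fold, adjusted p = 0.000271, 53.6% called). Baipimai was lower than Shengsimai by 0.40 (SE 0.0793, adjusted p = 9.47e-05, 61.7% called).

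At 96 h the gap to Zhoumai18 was wide. TraesCS3D01G364900 had 52.2 ± 3.84 CPM in Shengsimai, 36.7 ± 2.34 in Baipimai and 8.25 ± 1.22 in Zhoumai18 (mean ± SD, n = 3), again with no overlap between varieties. Shengsimai exceeded Zhoumai18 by 2.66 (SE 0.0869, 6.33-fold, adjusted p = 1.3e-20 in edgeR's quasi-likelihood test, 81.6% of genes called), a difference above that of 92.9% of tested genes. Baipimai exceeded Zhoumai18 by 2.16 (SE 0.0862, 4.46-fold, adjusted p = 1.02e-18, 82.4% called), above that of 89.8% of tested genes. Between the resistant varieties, Baipimai was lower than Shengsimai by 0.51 (SE 0.0795, adjusted p = 3.31e-06, 62.7% called).

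**Figure D2:**
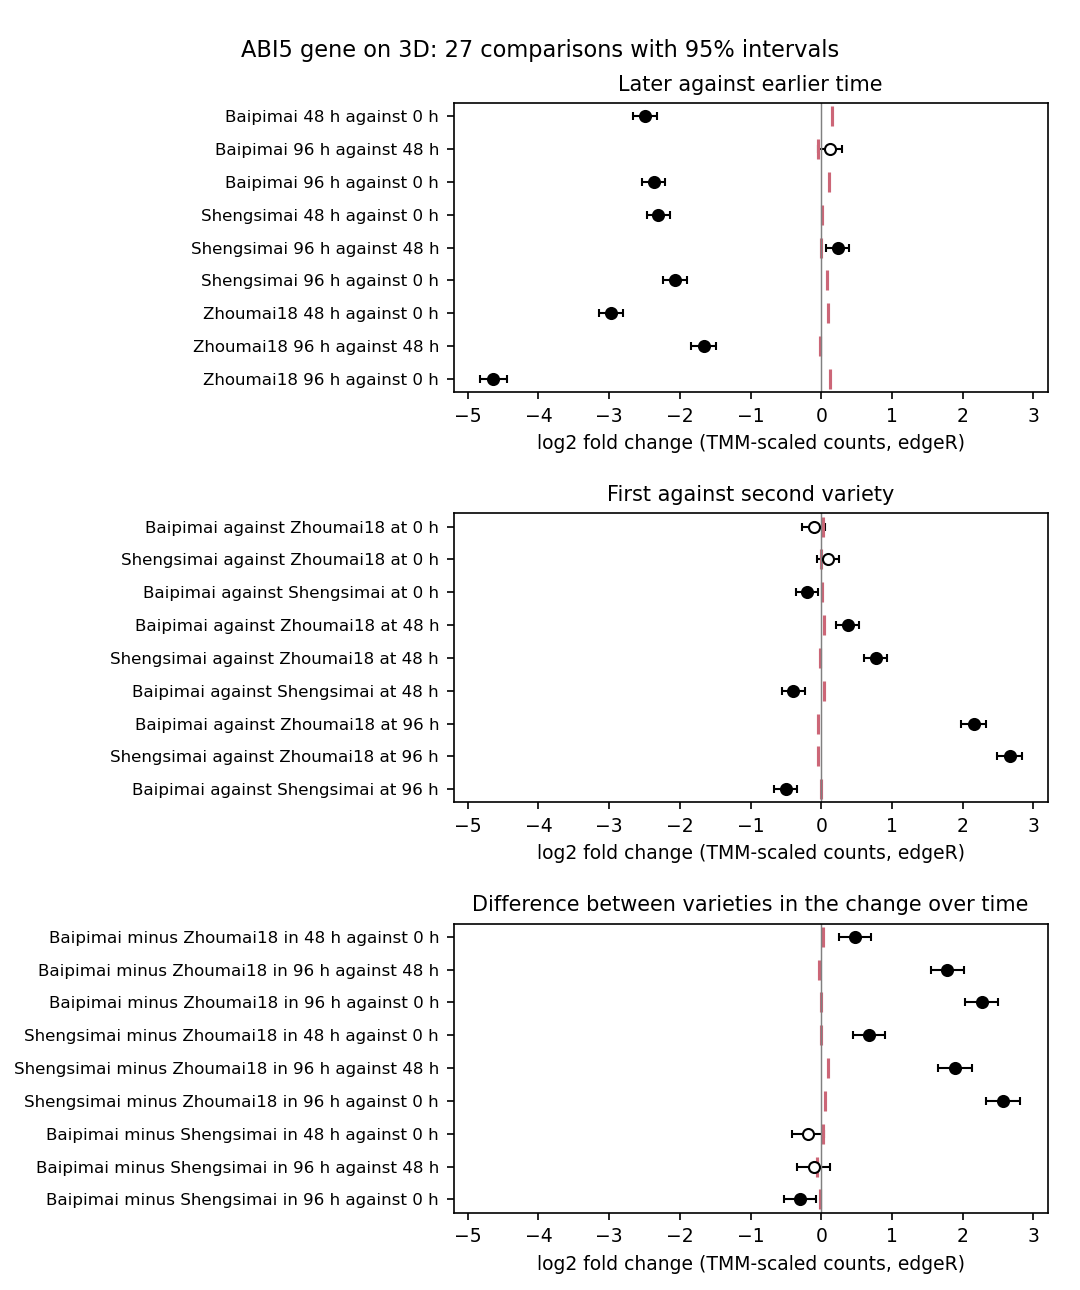
Log2 fold changes of TraesCS3D01G364900 (x axis, TMM-scaled counts) with 95% intervals for 9 comparisons of times, 9 of varieties and 9 differences of changes, filled where the adjusted p passed 0.05, with red ticks at the median of all tested genes. The fall to 96 h in Zhoumai18 (-4.64) lies farthest from 0, and the differences against Zhoumai18 at 96 h reach 2.16 and 2.66 on the positive side.

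Whether the course itself differed between varieties was tested directly, as a difference of log2 changes of TraesCS3D01G364900. A change that exceeds another has the higher signed value, so it is a smaller fall or a rise. Between 48 and 96 h the change in Baipimai exceeded that in Zhoumai18 by 1.78 (SE 0.117, adjusted p = 1.16e-13 in edgeR's quasi-likelihood test, 72.4% of genes called), and that in Shengsimai exceeded it by 1.89 (SE 0.116, adjusted p = 1.15e-13, 57.4% called). Between 0 and 48 h the differences from Zhoumai18 were 0.48 for Baipimai (adjusted p = 0.000848, 43.3% called) and 0.67 for Shengsimai (adjusted p = 1.11e-05, 49.7% called). Most of the departure of Zhoumai18 thus fell in the later interval. Between the resistant varieties, the changes differed by -0.19 from 0 to 48 h (95% interval -0.42 to 0.03, adjusted p = 0.169, 43.2% called) and by -0.11 from 48 to 96 h (95% interval -0.34 to 0.12, adjusted p = 0.459, 46.6% called), neither past the threshold.

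Over the full course the change of TraesCS3D01G364900 in Baipimai exceeded that in Zhoumai18 by 2.27 (SE 0.115, adjusted p = 6.63e-16 in edgeR's quasi-likelihood test, 66.8% of genes called), and that in Shengsimai exceeded it by 2.57 (SE 0.115, adjusted p = 5.66e-17, 65.2% called). Baipimai and Shengsimai differed by -0.30 (SE 0.111, adjusted p = 0.0259, 48.2% called), a call that was lost without Baipimai 0 h replicate 2 (-0.27), Shengsimai 0 h replicate 1 (-0.27), Baipimai 96 h replicate 3 (-0.25) or Shengsimai 96 h replicate 1 (-0.25). These comparisons share the libraries of each variety and are not independent of each other.

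**Figure D3:**
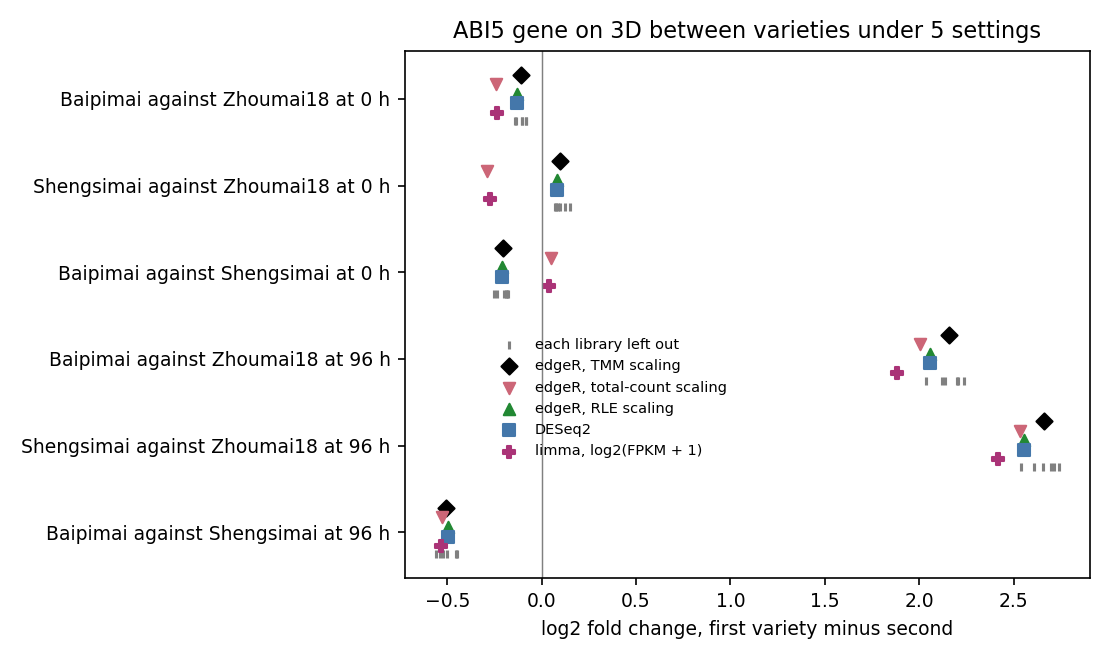
Log2 differences of TraesCS3D01G364900 between varieties at 0 and 96 h (x axis) under 5 settings, with grey ticks for the fits that leave out a library. At 96 h all settings stay on their side of 0, and at 0 h the comparisons of Shengsimai change sign with total-count scaling and with limma on FPKM.

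Ordered by TMM-scaled counts, TraesCS3D01G364900 was highest in the 3 groups at 0 h, followed by Shengsimai 96 h, Shengsimai 48 h, Baipimai 96 h, Baipimai 48 h, Zhoumai18 48 h and Zhoumai18 96 h. Among the 8 pairs of neighbours in this order, the 3 that did not differ past the threshold in edgeR's quasi-likelihood test were Shengsimai and Zhoumai18 at 0 h (0.10, adjusted p = 0.297), Zhoumai18 and Baipimai at 0 h (0.11, adjusted p = 0.256), and Baipimai at 96 and 48 h (0.12, adjusted p = 0.194). The drop from the lowest 0 h group to Shengsimai 96 h was 1.87 (SE 0.0802, 3.65-fold, adjusted p = 1.06e-17, 72.7% of genes called), and that from Shengsimai 48 h to Baipimai 96 h was 0.27 (SE 0.0794, adjusted p = 0.00374, 64.6% called). Within each library, ranked by FPKM, 504 to 797 genes stood above this gene at 0 h and 2441 to 5661 at 48 h. At 96 h 2003 to 2405 genes stood above it in Shengsimai, 3654 to 4313 in Baipimai and 16261 to 21017 in Zhoumai18, so the gene moved from the most abundant 1% of tested genes in Zhoumai18 (0.734% to 0.862% of them above it) to a rank with 23.7% to 30.6% of them above it.

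Wheat carries 3 related genomes, and TraesCS3A01G371800 on chromosome 3A carries the symbol ABFB in the deposited table, the name of a factor that binds the abscisic acid response element. Reads of related bZIP genes can be shared between copies by the counting, so the split between TraesCS3D01G364900 and ABFB is uncertain. ABFB fell too. In Zhoumai18 it had 80.7, 71.3 and 74.2 FPKM at 0 h, 25.8, 26.2 and 24.5 at 48 h, and 7.54, 8.15 and 7.61 at 96 h, with no overlap between times. In Baipimai it had 104, 114 and 108 FPKM at 0 h, 27.8, 30 and 27.3 at 48 h, and 39.3, 34.4 and 33.9 at 96 h, and all 3 libraries at 96 h lay above all 3 at 48 h. In Shengsimai it had 134 ± 2.51, 36.9 ± 1.84 and 48.6 ± 1.71 FPKM at 0, 48 and 96 h (mean ± SD, n = 3). From 0 to 96 h it fell by 3.53 in Zhoumai18 (11.6-fold, adjusted p = 3.52e-25 in edgeR's quasi-likelihood test), by 1.85 in Baipimai (3.60-fold, adjusted p = 2.48e-19) and by 2.0 in Shengsimai (4.0-fold, adjusted p = 4.6e-20). Its gap to Zhoumai18 at 96 h was 2.34 for Baipimai (5.07-fold) and 2.74 for Shengsimai (6.67-fold), close to the 2.16 and 2.66 of TraesCS3D01G364900.

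The 2 genes differed at 0 h. ABFB (TraesCS3A01G371800) was lower in Zhoumai18 than in Baipimai, by 0.66 (SE 0.0642, adjusted p = 1.12e-09 in edgeR's quasi-likelihood test), and than in Shengsimai, by 1.2 (SE 0.0647, adjusted p = 3.08e-15), and total-count scaling kept both differences (0.52 and 0.82), whereas the gene on 3D showed no such deficit there. The FPKM of TraesCS3D01G364900 divided by that of ABFB was 1.87, 2.01 and 2.01 in the Zhoumai18 libraries at 0 h. In the other 24 libraries it ran from 0.769 to 1.17 with a median of 0.927. The 3 Zhoumai18 libraries at 0 h thus stood apart from all others in this ratio, which no scaling between libraries alters. On the log2 scale the ratio in them exceeded that of Baipimai at 0 h by 0.77, of Shengsimai at 0 h by 1.11 and of Zhoumai18 at 48 h by 1.15, and that of Baipimai exceeded that of Shengsimai at 0 h by 0.34. These are descriptions with no test, since the comparisons were picked for their separation and 3 against 3 libraries cannot give a two-sided exact permutation p below 0.1. The sum of these 2 genes in FPKM was 223 ± 8.42 in Zhoumai18, 234 ± 11 in Baipimai and 256 ± 11 in Shengsimai at 0 h, and 14.9 ± 1.31, 64.7 ± 4.85 and 90.6 ± 4.11 at 96 h (mean ± SD, n = 3). A copy on chromosome 3B was not followed here, so the ratio and the sum cover the genes on 3D and 3A alone.

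**Figure D4:**
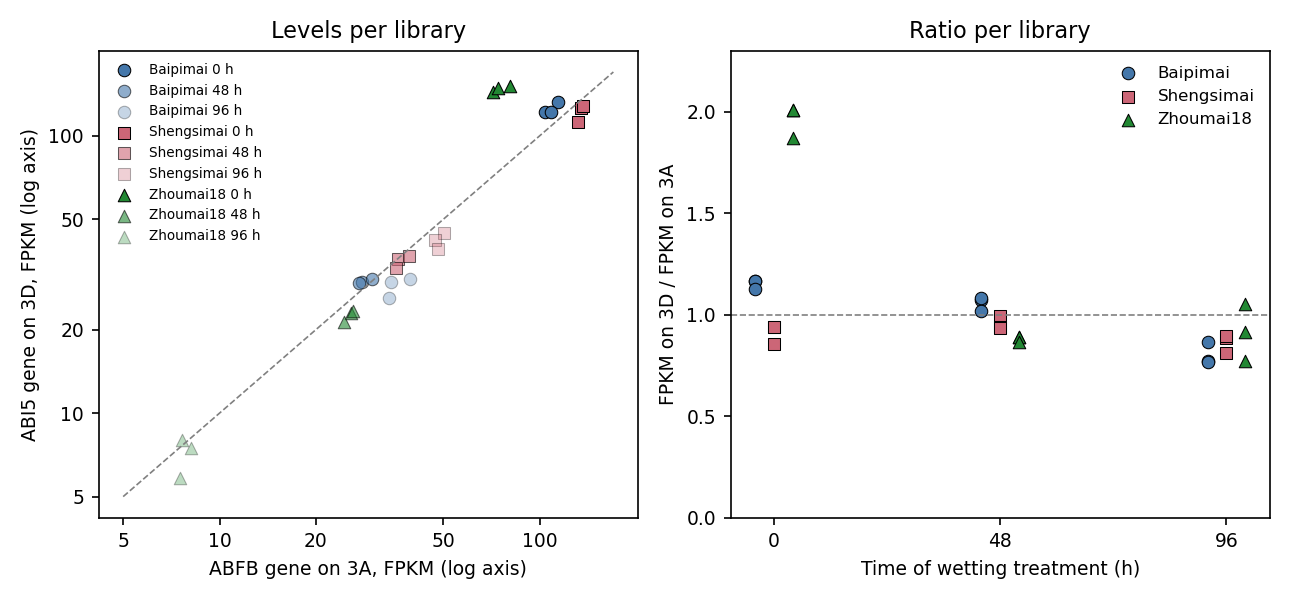
Left, FPKM of TraesCS3D01G364900 against FPKM of ABFB on 3A in 27 libraries (log axes, dashed line at equal levels). Right, the ratio of the same values by hours of treatment, where the Zhoumai18 libraries at 0 h lie at 1.87 to 2.01 and the other 24 at 0.769 to 1.17.

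Related genes were taken from the table's own symbols: 15 genes of the abscisic acid and gibberellin pathways and the seed coat, of which 14 were tested. The untested gene was Tamyb10-B1, a MYB factor of red grain colour, which was listed at 0 FPKM in all 27 libraries, the red-grained Shengsimai included. Other Tamyb10 copies were not followed, among them the gene on 3D that the study matched to Tamyb10-D. From 0 to 96 h, 5 of the 14 rose, 8 fell and 1 did not pass in Baipimai, where 39.4% of all tested genes rose and 31.4% fell. In Shengsimai 3 rose, 8 fell and 3 did not pass (39.5% and 33.2% of all genes), and in Zhoumai18 6 rose, 7 fell and 1 did not pass (44.4% and 37.8%). The list's median log2 change was -0.54 in Baipimai, -0.70 in Shengsimai and -0.31 in Zhoumai18, beside medians of 0.11, 0.08 and 0.12 over all tested genes. With total-count scaling 6 of the list rose in Shengsimai in place of 3, so the count in that variety hangs on the scaling.

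Among the bZIP factors and their partners, EmBP-1a (TraesCS5B01G470600), named for binding the promoter of the wheat Em gene, followed a course like that of TraesCS3D01G364900. It had 32.0, 29.9 and 31.2 FPKM in Zhoumai18 at 0 h, 4.06, 3.89 and 3.25 at 48 h, and 0.499, 0.459 and 0.467 at 96 h, a fall of 6.27 (SE 0.127, adjusted p = 2.28e-25 in edgeR's quasi-likelihood test). It fell by 2.74 in Baipimai and by 2.94 in Shengsimai. Its level at 0 h was highest in Shengsimai, at 63.9 ± 2.89 FPKM against 23.2 ± 0.172 in Baipimai (mean ± SD, n = 3).

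Vp-1A (TraesCS3A01G417300) is VIVIPAROUS-1, the partner of ABI5 in activating seed genes. In Zhoumai18 it had 21.7, 24.6 and 24 FPKM at 0 h, 8.96, 8.51 and 8.67 at 48 h and 4.35, 4.29 and 4.76 at 96 h, and fell by 2.65 (SE 0.0705, adjusted p = 8.61e-23 in edgeR's quasi-likelihood test). In Baipimai it had 27.7 ± 1.57, 20.7 ± 0.891 and 14.4 ± 0.87 FPKM at 0, 48 and 96 h, a fall of 1.19 (adjusted p = 2.64e-15). In Shengsimai its FPKM stayed at 25.6 ± 1.45, 24.7 ± 1.9 and 23.2 ± 0.786 (mean ± SD, n = 3), where TMM-scaled counts fell by 0.68 (adjusted p = 2.23e-10) and limma on log2(FPKM + 1) gave -0.14 (adjusted p = 0.0554). At 96 h Vp-1A was higher than in Zhoumai18 by 1.82 in Baipimai and by 2.47 in Shengsimai. AIP2-1 (TraesCS5A01G216000), a ubiquitin ligase that in Arabidopsis targets ABI3, rose by 0.43 in Baipimai and fell by 0.66 in Zhoumai18, and in Shengsimai it stood at -0.03 (adjusted p = 0.845) but at 0.48 with total-count scaling.

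The listed phosphatase and kinase genes did not move together, and whether these kinases act on ABI5 was not tested. TaABI1 (TraesCS3A01G209200), a protein phosphatase that brakes the signal, fell by 0.86 in Baipimai and rose by 0.89 in Shengsimai and by 0.47 in Zhoumai18 from 0 to 96 h. Baipimai and Shengsimai differed in this change by -1.74. Of the SnRK2.4 kinase genes, TraesCS3A01G381100 rose by 0.73 in Baipimai and by 0.82 in Zhoumai18, and in Shengsimai it stood at -0.10 (adjusted p = 0.424 in edgeR's quasi-likelihood test) but at 0.41 with total-count scaling. The other, TraesCS3B01G413800, fell by 0.59 in Baipimai, by 2.34 in Shengsimai and by 1.12 in Zhoumai18.

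The listed genes known to respond to abscisic acid, HVA22L, WCOR410, Wcor410c and PER1, did not follow TraesCS3D01G364900 as a group. They were taken by symbol and do not stand for all genes that respond to abscisic acid. The acidic dehydrins WCOR410 (TraesCS6D01G234700) and Wcor410c (TraesCS6B01G273400), which protect membranes in cold and drought, were highest in Zhoumai18 at 96 h, where TraesCS3D01G364900 was lowest. WCOR410 had 47.8, 49.3 and 45.3 FPKM in those libraries and at most 9.46 FPKM in any other, and Wcor410c had 48.0, 52.1 and 49.0 FPKM there and at most 4.45 FPKM elsewhere. These are also the libraries in which the light-harvesting genes summed to 42.9 to 44.2 FPKM, and the part of green tissue in the dehydrin levels was not tested. From 0 to 96 h the dehydrins rose in Zhoumai18 by 2.83 and 4.81. In Baipimai WCOR410 rose by 0.55 and Wcor410c by 1.73, while in Shengsimai WCOR410 fell by 1.01 and Wcor410c by 1.34, the latter from 0.334 ± 0.109 to 0.186 ± 0.0423 FPKM and not past the threshold with limma on log2(FPKM + 1) (-0.17, adjusted p = 0.121).

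PER1 (TraesCS2B01G174400), a peroxiredoxin known from dormant grain, was the most abundant of the listed responsive genes. It went from 90.4 ± 5.61 to 398 ± 11.3 and 492 ± 16.7 FPKM in Shengsimai, from 180 ± 11.5 to 360 ± 8.46 and 152 ± 9.6 in Baipimai, and from 131 ± 16.6 to 226 ± 11.7 and 102 ± 7.57 in Zhoumai18 (mean ± SD, n = 3). From 0 to 96 h it rose by 1.91 in Shengsimai and fell by 0.49 in Baipimai and by 0.62 in Zhoumai18, and the change in Shengsimai exceeded that in Zhoumai18 by 2.53 (adjusted p = 5.45e-17 in edgeR's quasi-likelihood test). HVA22L (TraesCS6B01G334800), a relative of a barley gene induced by abscisic acid, fell by 0.83 in Baipimai and stood at -0.01 in Zhoumai18. In Shengsimai it stood at -0.01 with TMM scaling but at 0.51 with total-count scaling (adjusted p = 0.0172), while its FPKM went from 2.63 ± 0.573 to 3.79 ± 0.54.

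AMY4 (TraesCS2B01G306400), an alpha-amylase gene, moved against TraesCS3D01G364900, and whether it answers to gibberellin was not tested. It had 2.93 ± 0.52, 6.12 ± 0.303 and 8.86 ± 0.17 FPKM in Zhoumai18 at 0, 48 and 96 h, and 5.46 ± 0.403 FPKM in Baipimai and 5.05 ± 0.128 FPKM in Shengsimai at 96 h (mean ± SD, n = 3). It rose by 1.34 in Zhoumai18 (adjusted p = 1.26e-12 in edgeR's quasi-likelihood test), by 0.58 in Baipimai and by 0.54 in Shengsimai. KAO-D (TraesCS7D01G026000), an enzyme of gibberellin synthesis, and GA2ox5-2 (TraesCS3B01G166100), which breaks gibberellin down, both stayed under 2 FPKM in every group mean. GA2ox5-2 fell by 1.65 to 2.82 in the 3 varieties. KAO-D rose by 1.09 in Zhoumai18, fell by 0.71 in Shengsimai (adjusted p = 0.0344, but -0.20 and adjusted p = 0.577 with total-count scaling) and stood at 0.12 in Baipimai (adjusted p = 0.79).

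**Figure D5:**
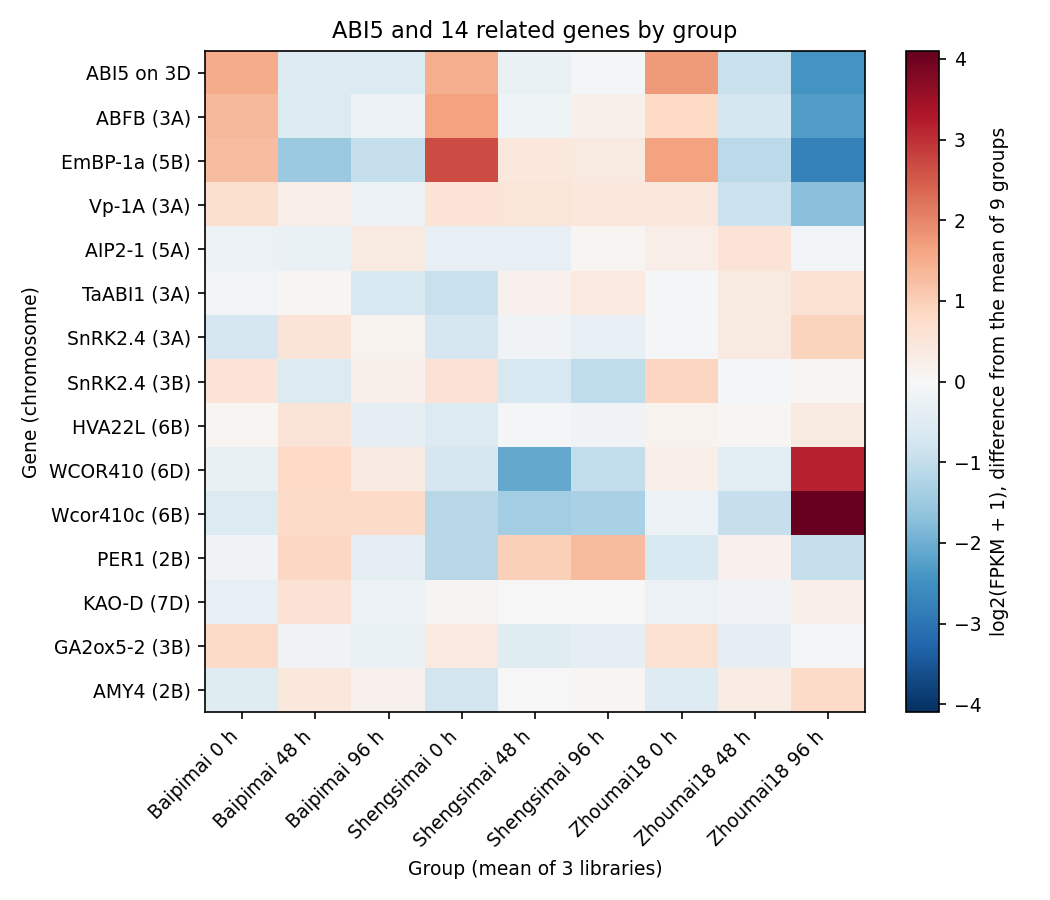
Group means of log2(FPKM + 1) for TraesCS3D01G364900 (top row) and the 14 tested genes of the list, each as the difference from its own mean over the 9 groups (color scale), with groups in columns. The top 4 rows, TaABI5, ABFB, EmBP-1a and Vp-1A, have their lowest value in Zhoumai18 at 96 h, where the dehydrins WCOR410 and Wcor410c have their highest.

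To find the genes whose pattern was most like that of TraesCS3D01G364900, Pearson's r of log2(CPM + 1) was taken over the 27 libraries against each of the other 68657 tested genes. The libraries share groups, depth and scaling, so r describes a likeness of the 9 group levels and carries no test. The 6 highest were TraesCS3D01G221600 (r = 0.993), Triticum_aestivum_newGene_45077 (0.991), TraesCS4B01G030500 (0.991), TraesCS1A01G083800 (0.990), TraesCS3A01G181100 (0.990) and Triticum_aestivum_newGene_13060 (0.990), none of which has a descriptive symbol in the table. TraesCS3D01G221600 had 38.3 ± 1.32, 7.07 ± 0.489 and 1.97 ± 0.149 FPKM in Zhoumai18 at 0, 48 and 96 h, against 12.8 ± 1.22 in Shengsimai at 96 h (mean ± SD, n = 3), and fell by 4.53 in Zhoumai18 from 0 to 96 h. TraesCS1A01G083800 was of another magnitude, with 2032 ± 108 FPKM in Zhoumai18 at 0 h and 4.26 ± 0.32 at 96 h. In all, 776 tested genes (1.13%) had r of at least 0.95 and 61 of at least 0.98, so a likeness of this size was shared by many genes. The 6 were not a fixed set: 2 of them stayed in the top 6 by the 9 group means, 3 by log2(FPKM + 1) and 0 by Spearman's rho over the 27 libraries.

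The most opposite genes were TraesCS3A01G406100 (r = -0.988) and TraesCS2D01G241800 (r = -0.986). TraesCS3A01G406100 rose from 0.201 ± 0.0327 FPKM at 0 h to 16.4 ± 0.745 at 96 h in Zhoumai18, and from 0.126 ± 0.015 to 1.73 ± 0.203 FPKM in Shengsimai (mean ± SD, n = 3). Of the list, ABFB ranked 206th in likeness to TraesCS3D01G364900 (r = 0.971) and 22nd by Spearman's rho (0.970), EmBP-1a ranked 843rd (r = 0.948) and Vp-1A 3181st (r = 0.889). AMY4 was 143rd from the opposite end (r = -0.955). Over all 27 libraries r was 0.02 for PER1, -0.41 for WCOR410, -0.59 for Wcor410c and 0.02 for HVA22L. Over the 18 libraries at 48 and 96 h, a subset chosen after the values were seen, it was 0.85 for PER1, -0.86 for WCOR410, -0.87 for Wcor410c and -0.44 for HVA22L, and it changed sign for SnRK2.4 on 3B (0.64 to -0.53) and GA2ox5-2 (0.76 to -0.59).

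The identifiers on either side of TraesCS3D01G364900 on 3D, namely TraesCS3D01G364700, TraesCS3D01G364800, TraesCS3D01G365000 and TraesCS3D01G365100, showed neither its level nor its course. Their group means reached at most 10.9 FPKM, TraesCS3D01G365000 was too low to be tested, and r with TraesCS3D01G364900 was -0.57 for TraesCS3D01G364700, -0.39 for TraesCS3D01G364800 and -0.36 for TraesCS3D01G365100. TraesCS3D01G364800 had 2, 0 and 0 counts in the Shengsimai libraries at 0 h and 177, 175 and 172 at 96 h, so its rise there has a baseline at or near 0 and is given no fold. In Zhoumai18 it went from 5.26 ± 2.3 to 2.55 ± 0.26 FPKM (mean ± SD, n = 3), a fall of 1.30 on the log2 scale in edgeR's quasi-likelihood test. The library kit as described does not mark strand, so reads from an overlapping antisense transcript cannot be told apart from those of the gene.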

How the data were processed

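RNA was extracted from whole spikes and sequenced as poly(A) libraries by the company named in the study. The authors deposited raw counts per gene and, beside them, FPKM values for 27 libraries in one table of 153699 genes. The aligner, counter and genome build are not given in the sources used here. Of the table, 1 malformed line was left out, and a table of resistance classes in words was not used. Samples were grouped by their deposited labels, although the code number of Baipimai there does not match the study's variety list. Genes with at least 1 FPKM in at least 3 libraries were tested on the deposited counts with edgeR 4.0.16 (R 4.3.3, quasi-likelihood test, TMM scaling, 9 group means, Benjamini-Hochberg adjustment over 68658 genes, threshold 0.05). The procedure was run on simulated counts in which few genes changed. Such counts cannot show how the scaling behaves where as many genes are called as here. FPKM carry the authors' scaling by library size, without TMM, so the 2 scales can order groups differently. Alternatives were DESeq2 1.42.0, limma 3.58.1 on log2(FPKM + 1) and log2(FPKM + 0.1), RLE and total-count scaling, no filter, the compared groups alone, a replicate block and leaving out each library.

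The gene and the lists were chosen with earlier results of these data known. Genes named besides the list were the 6 most alike and 2 most opposite by r, and 2 identifiers on each side. A list by gene descriptions could not be applied, since the table has symbols only, so symbols were used. Libraries of a group differed by more than sampling noise (chi-square per degree of freedom 2.84 to 11.5). Gene coordinates and sequences were not used here.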

Additional observations from a re-analysis of the deposited data

Results flagged for a closer look

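The change of TraesCS3D01G364900 over time differed between varieties in 7 of the 9 tests of a difference (edgeR's quasi-likelihood test, adjusted over all genes, 3 libraries in each group). In these 9 tests 43.2% to 72.4% of all tested genes passed the threshold. A higher log2 change is here a smaller fall, or a rise. Against Zhoumai18, the log2 change in Baipimai was higher by 0.48 from 0 to 48 h (adjusted p = 0.000848), by 1.78 from 48 to 96 h (adjusted p = 1.16e-13) and by 2.27 from 0 to 96 h (adjusted p = 6.63e-16). Against Zhoumai18, that in Shengsimai was higher by 0.67 from 0 to 48 h (adjusted p = 1.11e-05), by 1.89 from 48 to 96 h (adjusted p = 1.15e-13) and by 2.57 from 0 to 96 h (adjusted p = 5.66e-17). Between Baipimai and Shengsimai the difference from 0 to 96 h was -0.30 (adjusted p = 0.0259), a call lost in 4 of the fits that left out a library. The first 6 rest on the same Zhoumai18 libraries. Each change from 0 to 96 h also spans the shorter intervals, so the tests are not independent. The part of the green-tissue and grain markers in these differences was not tested.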

How the results depend on the processing

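Of 460 recomputed values, for 29 results, 427 kept their direction and their side of the threshold, 15 lost the call, 9 gained it and 9 changed sign. All falls from 0 h and all differences from Zhoumai18 at 48 and 96 h held in every setting. For Baipimai against Zhoumai18 at 0 h, total-count scaling gave -0.24, limma on log2(FPKM + 1) -0.23 and on log2(FPKM + 0.1) -0.24, all now called. For Shengsimai against Zhoumai18 at 0 h the same settings gave -0.29, -0.28 and -0.28, for Baipimai against Shengsimai at 0 h 0.0475, 0.0415 and 0.0418, and for Baipimai 96 h against 48 h -0.0542, -0.0577 and -0.0595, all with a changed sign. The difference of Baipimai and Shengsimai in the change from 0 to 48 h gained a call with the compared groups alone (-0.30), total-count scaling (-0.29) and limma on log2(FPKM + 1) (-0.28), and that from 48 to 96 h with total-count scaling (-0.28) and limma (-0.30 and -0.31). With no filter, Baipimai against Shengsimai at 0 h (-0.14) and Shengsimai 96 h against 48 h (0.21) lost the call, the latter also with RLE scaling (0.21). Leaving out a library gave -0.25 to -0.18 for Baipimai against Shengsimai at 0 h, 0.18 to 0.29 for Shengsimai 96 h against 48 h and -0.35 to -0.25 for the difference of Baipimai and Shengsimai from 0 to 96 h. In Shengsimai from 0 to 96 h, 6 list genes rose with total-count scaling and with limma at either offset, and 5 fell with limma on log2(FPKM + 1). Of the 6 most alike genes, 2, 0 and 3 stayed by group means, Spearman's rho and FPKM, and 1 over the 18 libraries at 48 and 96 h, an alternative added after the data were seen. The cause of these changes was not tested.

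Samples were not treated as paired by replicate number. Same-numbered libraries deviated together (r above 0.1) in 19 of 108 pairs, and 11 of 27 libraries correlated best with their own number. Pairs with different numbers were not counted in this way, so these figures do not settle whether the numbers pair the samples. A replicate block changed no call, for example 2.57 for the difference of Shengsimai and Zhoumai18 from 0 to 96 h. With 3 spikes in a group and only 3 varieties, a difference between varieties cannot be told apart from other differences between those varieties.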
